A study of Drosophila melanogaster with 4 samples.

Results

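The genes for 4 known proteins of the Drosophila corneal lens, retinin, Crys, Cpr66D and Cpr72Ec, were taken by name from the 14935 genes measured, and all 4 were found. Crys stood in the table under its older symbol Cry and was identified by its FlyBase and Entrez numbers, because cry in lower case is another gene, the one for cryptochrome. The identifiers were FBgn0040074 for retinin, FBgn0005664 for Crys, FBgn0052029 for Cpr66D and FBgn0036619 for Cpr72Ec. The rule that chose them names known lens proteins and uses no measured value, though it was set with earlier results of these data known.

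The fly corneal lens is the transparent outer cap of each unit eye, an apical extracellular matrix of chitin and protein. It is secreted in later pupal life by cone cells (CCs), the accessory cells under it, together with primary pigment cells, and photoreceptors (PRs), the light-sensing neurons beneath, are not among its known makers. Crys encodes drosocrystallin, the major lens glycoprotein, and retinin encodes a small secreted lens protein that also takes part in the coat of nanoscale bumps on the lens surface. Cpr66D and Cpr72Ec, like Crys, belong to the Cpr family of cuticular proteins, which carry the Rebers and Riddiford chitin-binding domain. In the gene annotation deposited with the counts, Crys alone of the genes measured carried the term for a structural constituent of eye lens.

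Cells were sorted from eye tissue of 45 to 75 animals per stage, and 1 RNA library was made for each of 4 populations, CCs of larvae, of pupae and of adults and PRs of adults. Larval CCs, of wandering late larvae, and pupal CCs, taken 25 h after the puparium formed, were GFP-positive cells of sev-; prosPSG-GFP; TM2/TM6B animals, which lack R7 photoreceptors. Adult CCs, of flies 1 to 2 days old, came from yw67; sp/CyO; TM2/TM6B flies and were sorted by antibody staining for Fas3, an adhesion molecule of CCs, and with 22C10, which marks neurons. Adult PRs of the same age were RFP-positive, GFP-negative cells of prosPSG-GFP retinas. Thus larval and pupal CCs differed in stage, adult CCs and PRs in genotype and sorting as well as in cell type, and adult and pupal CCs in stage, genotype and sorting, and within each pair the separate preparation of the libraries cannot be told apart from these. The prosPSG enhancer drives GFP in cells that express pros, so that the younger CCs were defined by pros activity and the adult CCs by a surface protein. Since these were bulk samples, fewer cells of a type and less RNA per cell cannot be told apart.

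Levels are log2 TMM-normalized read counts per gene, and 1 unit is 1 normalized count on the linear scale. Counts of 1 or less were listed as 0. The libraries held an estimated 1.6 to 3.81 M reads on genes, by the steps between low values, and 1 read was worth an estimated 0.597 to 0.854 units in the CC libraries and 1.66 units in the PR library. The study states a greater depth than these estimates, and the steps searched do not exclude it, so estimated reads may be too few. Adult CCs held less than PRs of all 15 photoreceptor markers, with ninaE, the main rhodopsin gene, at 17.37 on the log2 scale in the PR library and 1.39 in the adult CC library. The gap was widest for ninaE, and 7 of the 15 still held 32 units or more in adult CCs. Of these norpA was highest, at 10.52 against 15.38 in PRs. With 1 library per condition in the table, and a second adult CC library of the study not used here, differences could not be held against replicates, and p-values are left out. A gene is called higher or lower where log2(value + 4) differed by 2 or more and the higher library held at least 32 units. The added 4 units shrink the difference of a gene with a low level.

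Of the lens genes, 3 were abundant in adult CCs and at or near the bottom of the scale in the younger CCs, and the other, Cpr66D, was low in every library. The 4 genes together made up 6.08% of the adult CC library, against 0.152% of the PR library, 0.000929% of the pupal CC library and 0.000363% of the larval CC library. Nearly all of the adult share was retinin, with 5.80% of the library. Crys took 0.231% and Cpr72Ec 0.0514%.

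**Figure D1:**
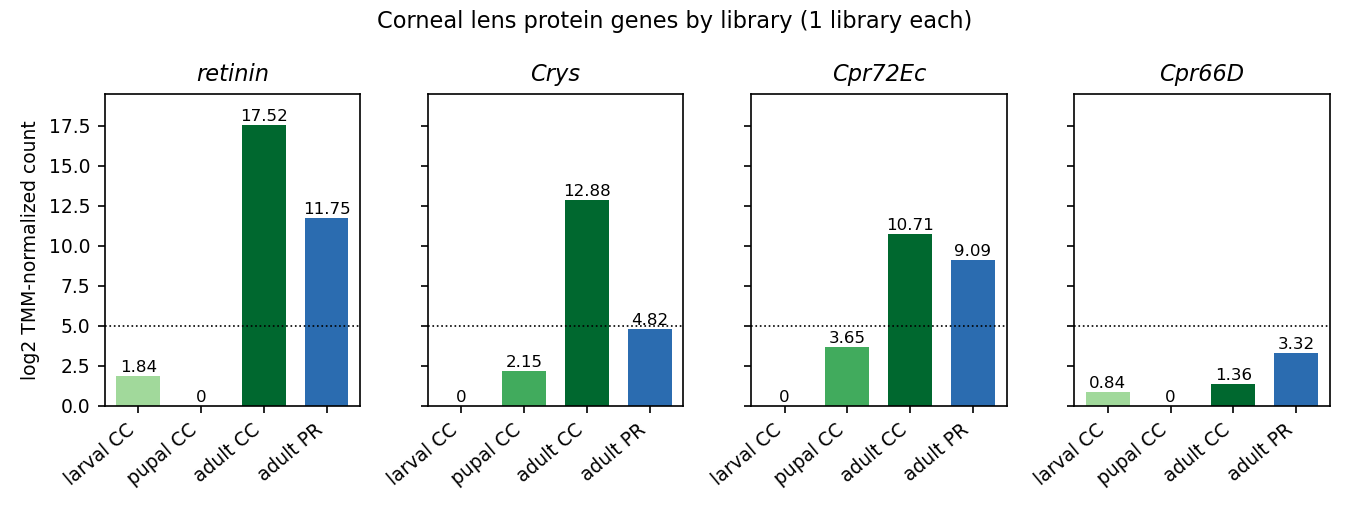
Level of each lens gene as log2 TMM-normalized count (vertical axis) in larval, pupal and adult CCs and adult PRs (bars, 1 library each, no error bars), with the dotted line at 32 units. Retinin, Crys and Cpr72Ec reach 17.52, 12.88 and 10.71 in adult CCs, and Cpr66D does not pass 3.32 in any library.

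Retinin had the highest undivided count of any gene in adult CCs. The larval, pupal and adult CC levels of retinin were 1.84, 0 and 17.52 on the log2 scale, and its PR level was 11.75. The larval level corresponded to an estimated 6.0 reads, so that retinin was at the edge of detection in larval CCs and listed at 0 in pupal CCs. On the log2(value + 4) scale it was 15.52 higher in adult than in pupal CCs, the largest difference in that comparison among the 14935 genes, and the size of this difference depends on the added constant because the pupal value was 0. The PR library also held 3439 units of retinin, and the adult CC level was 54.8-fold higher, a difference of 5.78.

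Crys was likewise highest in adult CCs. Its larval, pupal and adult CC levels were 0, 2.15 and 12.88 on the log2 scale, and its PR level was 4.82. The pupal level corresponded to an estimated 7.0 reads and the PR level to 17.0, so the transcript was abundant in adult CCs alone among the 4 libraries. It was 9.80 higher in adult than in pupal CCs on the log2(value + 4) scale, the 4th largest difference of all genes, or 1697-fold as a plain ratio resting on those few pupal reads. Against PRs it was 7.87 higher, the 3rd largest difference, or 267-fold as a plain ratio that rests on the few PR reads, a level under 32 units.

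Among the lens genes that reached 32 units in a library, Cpr72Ec had the most even levels between the adult libraries. For the CCs of larvae, pupae and adults the log2 levels were 0, 3.65 and 10.71, and for PRs 9.09. The adult CC level was 133-fold that of pupal CCs, which is 6.66 on the log2(value + 4) scale and the 29th largest of all genes. It was 3.07-fold that of PRs, a difference of 1.61, which did not reach the limit of 2. Between larval and pupal CCs the difference was 2.05, but the 12.5 units in pupal CCs lay under the floor of 32 and no call was made.

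Cpr66D did not reach 32 units in any library. The CC levels were 0.84 at the larval, 0 at the pupal and 1.36 at the adult stage on the log2 scale, and the PR level was 3.32. These values stand for an estimated 3.0 reads in the larval library, 3.0 in the adult CC library and 6.0 in the PR library. No difference was called for Cpr66D in any of the 4 comparisons.

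Counted over the lens genes, 3 of 4 were higher in adult than in pupal CCs (retinin, Crys and Cpr72Ec), where 6.47% of all genes were called higher, or 14.3% of those at 32 units or more in either library, and 6.11% of all genes were called lower. The same 3 were higher in adult than in larval CCs, where 9.01% of all genes were higher and 4.45% lower, and for the pair of calls together the share of all genes was 5.71%. Against PRs, adult CCs were higher in retinin and Crys of the 4, a call made for 9.31% of all genes and for 21.9% of those at 32 units or more. None of the 4 was called lower in that comparison (4.91% of all genes were), and none was called in either direction between pupal and larval CCs, where 4.64% of all genes were higher and 1.07% lower. Retinin and Crys were the 2 lens genes higher in adult CCs than in each of the other 3 libraries, which was the case for 3.27% of all genes. The comparisons with adult CCs share that library, so they are not separate evidence.

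How many genes in all were called depended on the scaling of the libraries. With equal library totals the split between adult and pupal CCs, 966 genes higher and 913 lower, became 572 and 1565, and that between adult CCs and PRs, 1390 and 734, became 965 and 809 (1006 and 1031 with median ratios). Over all genes the median difference was 0.33 between adult CCs and PRs and 0 between adult and pupal CCs, and with equal totals it was 0.08 and -0.50. The calls of the 4 lens genes were the same under both of these scalings.

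**Figure D2:**
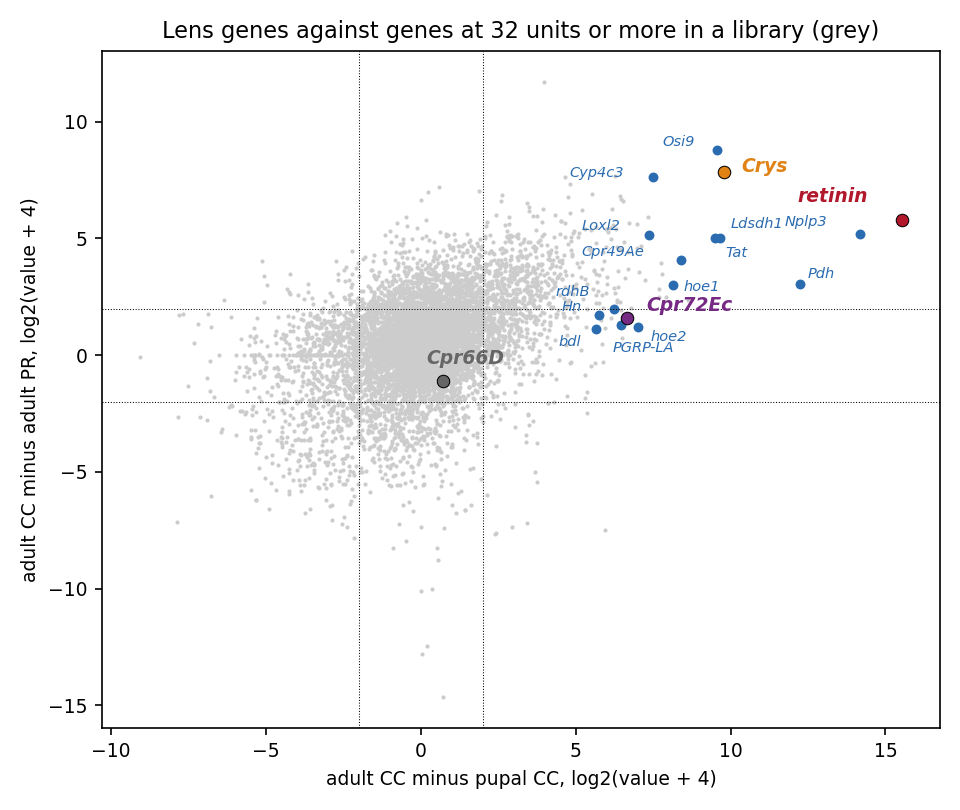
Difference between adult and pupal CCs (horizontal axis) against that between adult CCs and PRs (vertical axis), both on the log2(value + 4) scale, for the lens genes, their nearest genes in profile (blue) and other genes at 32 units or more in some library (grey), with dotted lines at 2 and -2. Retinin lies at 15.52 and 5.78, Crys at 9.80 and 7.87 and Cpr72Ec at 6.66 and 1.61, while Cpr66D lies near the middle.

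Counts rise with the length of a transcript, so levels of different genes were compared after division by coding length. The coding parts measured 573 bases in retinin, 1431 in Crys, 810 in Cpr66D and 1287 in Cpr72Ec. Retinin has 2 exons and 1 annotated transcript, Crys 2 exons and 2 transcripts, Cpr66D 3 exons and Cpr72Ec a single exon. Crys lies on chromosome arm 2L and the other genes on arm 3L, and no annotated gene overlaps any of them. In adult CCs the level per kb of coding sequence was 329088 units for retinin, 5261 for Crys, 1299 for Cpr72Ec and 3.16 for Cpr66D. Among the 13003 genes with a coding length these were places 2, 41, 249 and 9091. In PRs the order was another: retinin stood at 6001 units per kb, Cpr72Ec at 423, Crys at 19.7 and Cpr66D at 12.3.

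To show how far the lens genes ran with the sorted cell type, their PR level was set beside their adult CC level. The PR level was 0.375% of the adult CC level for Crys, 1.82% for retinin and 32.6% for Cpr72Ec. Known CC genes gave values between the first pair and the last: 3.87% for ct, which encodes the homeodomain factor Cut, 4.42% for Fas3, on which the adult CCs were sorted, 5.10% for sv, which encodes the Pax2 factor of cone and pigment cells, and 7.36% for eya, a retinal determination gene. Of the remaining markers, the homeobox gene B-H1 was listed at 0 in PRs, and pros was at 4.28 in adult CCs and 5.05 in PRs. Over the 966 genes higher in adult than in pupal CCs the median was 19.2% and the quartiles 6.43% and 45.5%. So the PR library held less Crys and retinin, relative to adult CCs, than it held of ct, Fas3, sv and eya, and more Cpr72Ec.

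Primary pigment cells are the other known makers of the lens, and the markers used do not separate them from other pigment cells. Among these markers of pigment cells, Pdh moved with the lens genes and most others did not. Between adult and pupal CCs 2 of 8 were higher (Pdh and santa-maria), 1 was lower (cn, at 5.48 in pupal and 2.53 in adult CCs) and 5 were not called, with a median difference of 0.57 (1 higher, 1 lower and a median of -0.06 with equal totals). In that comparison, for this list and those below, 6.47% of all genes were higher and 6.11% lower. In pupal and adult CCs the levels of w were 5.74 and 4.87 and those of Glut3 3.66 and 2.09. The adult CC flies were of the yw67 genotype, named in part for w, so for w stage and genotype cannot be told apart. The summed log2 level over 8 markers was 6.37, 8.23 and 16.54 in the CCs of larvae, pupae and adults, and 13.54 in PRs. Almost all of the adult sum was Pdh, an enzyme of retinoid metabolism in pigment cells, at 16.53 in adult CCs and 13.48 in PRs. Of the 8 markers 4 were at 32 units or more in adult CCs and 3 were listed at 0 in PRs, and against PRs the calls in adult CCs were 2 higher and 1 lower (1 and 1 with either other scaling). The PR level was 12% of the adult CC level for Pdh, 21.0% for st, 61.6% for bw and 637% for santa-maria. The summed level of 6 CC markers was 11.96, 12.63, 14.87 and 10.63 in larval, pupal and adult CCs and PRs. Markers of head epidermis and cuticle summed to 7.23, 6.69, 10.02 and 7.27 in the same order, with 3 of 10 higher and none lower at the step from pupal to adult CCs (2 with equal totals) and 8 listed at 0 in PRs. Markers of optic lobe glia summed to 7.28, 8.42, 13.76 and 11.39. At the step from pupal to adult CCs 2 of 8 were higher (Gs2 and wrapper) and 1, repo, was lower. Most of the adult CC sum was Gs2 at 13.69, and repo stood at 0.77 there. The study describes Gs2, Eaat1 and wrapper as genes that CCs express too. Hemocyte markers summed to 7.15, 9.19, 10.20 and 10.24, with 1 of 7 higher (0 with equal totals) and 1 lower. Most of both adult sums was crq, at 9.88 in adult CCs and 10.22 in PRs, while Hml stood at 7.23 and 2.32. Muscle markers summed to 5.88, 8.53, 8.82 and 5.37 and fat body markers to 2.06, 6.23, 7.05 and 8.01, with none called between adult and pupal CCs. Bristle markers summed to 10.61, 10.76, 7.89 and 12.48, with 3 of 6 lower. The gene futsch alone stood at 10.31, 10.49, 6.58 and 12.47, most of the bristle sum outside adult CCs. Photoreceptor markers summed to 8.99, 9.53, 11.15 and 18.77, with 3 of 15 higher and none lower between adult and pupal CCs. The part of these cells in the lens gene levels was not tested.

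**Figure D3:**
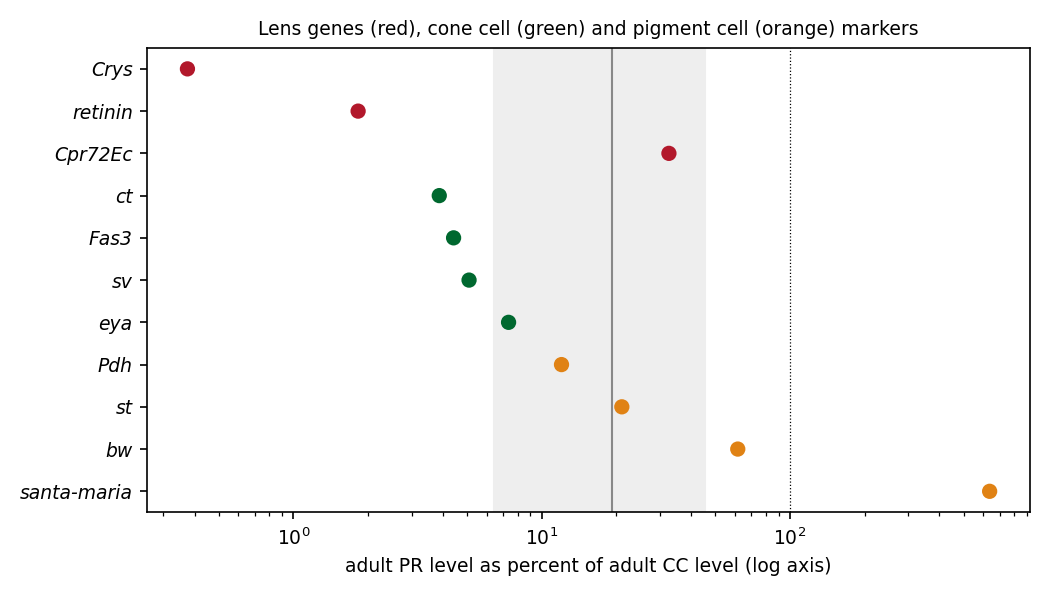
Adult PR level as a percent of the adult CC level (horizontal log axis) for lens genes (red), CC markers (green) and pigment cell markers at 32 units or more in adult CCs (orange), with the median (line) and quartiles (grey band) of the 966 genes higher in adult than in pupal CCs and a dotted line at 100%. Crys at 0.375% and retinin at 1.82% lie below ct, Fas3, sv and eya, and Cpr72Ec at 32.6% lies inside the band. The CC markers B-H1, at 0 in PRs, and pros, under 32 units in adult CCs, are not drawn, nor is Cpr66D, under 32 units throughout.

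Genes were also ranked by how like their profile over the 4 libraries was to that of a lens gene, by the root mean square difference of log2(value + 4) profiles, each centred on its own mean. The nearest to retinin was Nplp3, which encodes a neuropeptide-like precursor, at a distance of 0.58 and levels of 0, 0.89, 16.72 and 11.52 in larval, pupal and adult CCs and PRs. The second was Pdh, at a distance of 1.36 and levels of 1.26, 3.98, 16.53 and 13.48. After these came Ldsdh1, a short-chain dehydrogenase of lipid droplets, at 2.35, the cuticular protein gene Cpr49Ae at 2.64 and hoe1, a relative of the albinism gene of mammals, at 2.64. Nplp3 and Pdh remained the nearest pair with equal totals and with 1 or 16 units added.

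The 5 genes nearest to Crys were, like it, higher in adult CCs than in any other library. Osi9, of the Osiris family of transmembrane proteins, lay at a distance of 0.82 with levels of 1.84, 1.66, 12.39 and 3.05. The next were Cyp4c3, a cytochrome P450, at 0.96, Loxl2, a lysyl oxidase that cross-links matrix proteins, at 1.12, Tat, for tyrosine aminotransferase, at 1.16, and Ldsdh1 at 1.21. Loxl2 stood at levels of 0, 1.93, 10.32 and 4.98.

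The genes nearest to Cpr72Ec were all high in both adult libraries. They were hoe2, a paralog of hoe1, at a distance of 0.26 with levels of 0, 3.16, 10.69 and 9.47, and rdhB, a retinol dehydrogenase of the visual chromophore pathway, at 0.29 with levels of 0, 4.07, 10.60 and 8.61. PGRP-LA, a peptidoglycan recognition protein gene, followed at 0.36, bdl, which encodes an adhesion molecule, at 0.41, and Hn, for phenylalanine hydroxylase, at 0.47. Among the lens genes themselves the distance was 2.25 between Crys and Cpr72Ec, 3.06 between retinin and Crys and 3.21 between retinin and Cpr72Ec. By these distances Crys was in place 11 and Cpr72Ec in place 15 of 7461 genes from retinin, and Cpr72Ec in place 104 from Crys. Cpr66D, low throughout, lay at 6.10 from retinin, 4.21 from Crys and 3.23 from Cpr72Ec.

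Nplp3, retinin, Pdh and Cpr72Ec lie on the same stretch of arm 3L, an observation made after their values were seen. In the gene order of the RefSeq table, 23 protein-coding genes run from Nplp3 to Cpr72Ec, of which 22 were measured, with 10 genes between Nplp3 and retinin, 6 between retinin and Pdh and 3 between Pdh and Cpr72Ec. Of the 22, 12 were under 32 units in all libraries and 7 were at 32 units or more in adult CCs. Higher in adult than in pupal CCs were 5 of the 22 (Nplp3, retinin, CG4933, Pdh and Cpr72Ec), or 4 with equal totals, under which CG4933 was not called, and 1 was lower. The stretch was chosen for Nplp3, retinin, Pdh and Cpr72Ec, so their calls came with that choice. Over all genes 6.47% were higher. Nplp3 took 3.31% of the adult CC library and Pdh 2.92%, beside the 5.80% of retinin, and these were the 3 highest levels per kb in adult CCs, at 398649 units for Nplp3, 329088 for retinin and 113755 for Pdh. By rank of the difference between adult and pupal CCs they were the first 3 of 14935 genes, in the order retinin, Nplp3 and Pdh. The closest neighbours of retinin measured on each side, CG33061 and CG13056, were at 2.68 and 4.58 in adult CCs, both under 32 units.

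The end of that stretch holds 3 Cpr genes in a row with unlike profiles. Cpr72Ea was at 9.97 in pupal CCs, at 2.36 in adult CCs and at 0 in the other libraries, a difference of -6.79 between adult and pupal CCs. Cpr72Eb did not pass 1.34 in any library. Cpr72Ec, next to them, was the one that was high in adult CCs.

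**Figure D4:**
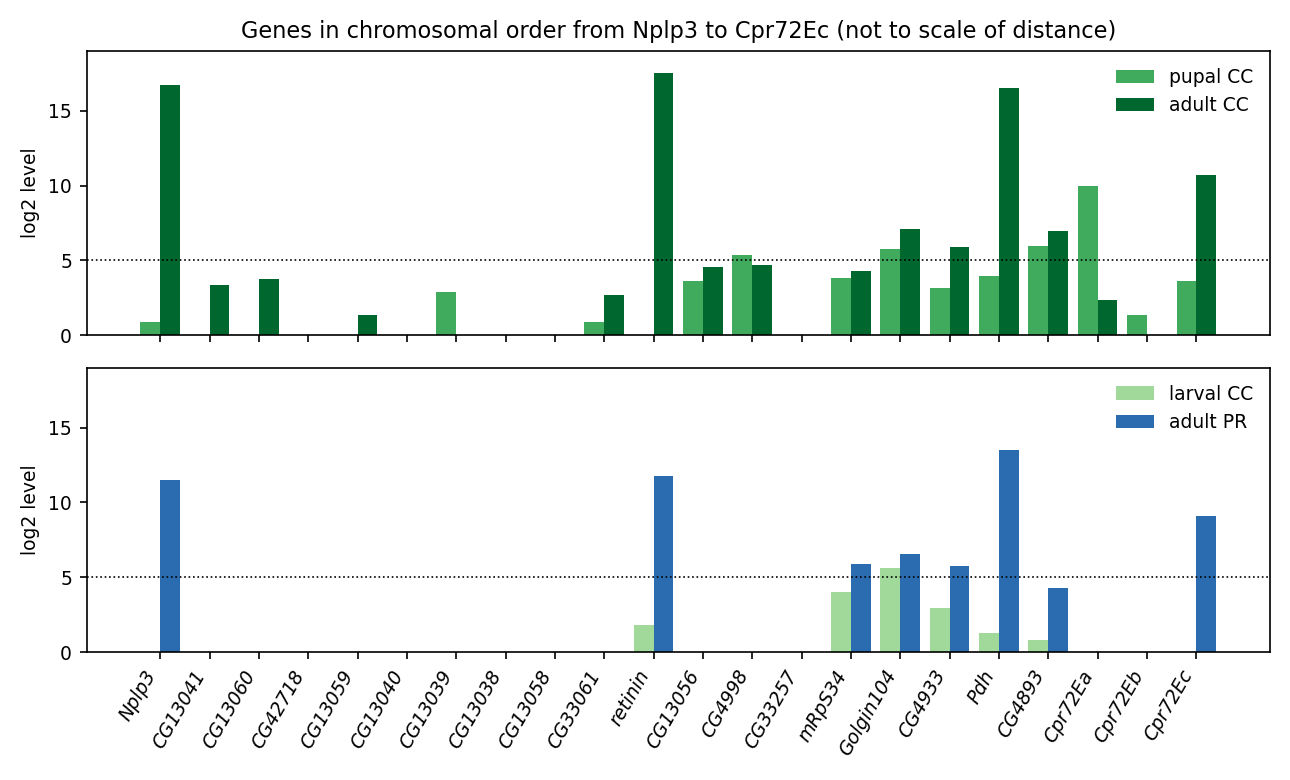
Log2 level (vertical axis) of the 22 measured genes in chromosomal order from Nplp3 to Cpr72Ec, in pupal and adult CCs (upper panel) and larval CCs and adult PRs (lower panel), 1 library each, with the dotted line at 32 units. Nplp3, retinin, Pdh and Cpr72Ec stand at 16.72, 17.52, 16.53 and 10.71 in adult CCs, the next highest gene there is Golgin104 at 7.13, and Cpr72Ea stands at 9.97 in pupal CCs.

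Within the Cpr family as listed here, most genes were low in these cells. Of the 80 genes listed, the 3 lens genes included, 68 were under 32 units in all libraries. Of all 14935 genes, 7462 held 32 units or more in some library. The list left out the Ccp84A, Lcp65A and Acp65Aa genes, so its counts and places are not those of all cuticular protein genes. Of those left out, Ccp84Ag stood at 0, 0, 8.11 and 2.32 in larval, pupal and adult CCs and PRs. A wider list of 130 annotated cuticle genes, without the lens genes, had 5 higher in adult CCs and 8 higher in pupal CCs. By level per kb in adult CCs, Cpr49Ae came first of the 80 with 47723 units, Crys in place 2, Cpr72Ec in place 3 and Cpr66D in place 42. Cpr49Ae stood at log2 levels of 0, 5.71, 14.23 and 10.16 in larval, pupal and adult CCs and PRs, the same order of libraries as in Crys and Cpr72Ec. Among the 77 others, the step from pupal to adult CCs had 3 higher and 5 lower (3 and 6 with equal totals), and the step from larval to pupal CCs had 6 higher (5 with either other scaling). From pupal to adult CCs 6.47% of all genes were higher and 6.11% lower, and from larval to pupal CCs 4.64% were higher. Cpr100A was already at 8.84 in pupal CCs and stood at 9.71 in adult CCs and 4.32 in PRs. Cpr92F rose from 5.10 in pupal to 8.09 in adult CCs, Cpr49Ag from 2.27 to 6.58 with 9.63 in PRs, and Cpr97Eb fell from 7.20 to 4.97.

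Chitin, the polysaccharide of the lens, is made and shaped by enzymes and binding proteins whose genes split between the pupal and the adult library. Of 25 measured, 6 were higher in adult CCs and 5 in pupal CCs (6 and 7 with equal totals), with a median difference of 0.25 beside 0 for all genes. The share of all genes was 6.47% higher in adult CCs and 6.11% higher in pupal CCs. Higher were Gasp, a chitin-binding protein, at 8.05 in pupal and 12.39 in adult CCs, obst-E, another, at 1.34 and 8.04, and Idgf6, of the chitinase-like imaginal disc growth factors, at 6.60 and 10.93. Cht5, a chitinase of moulting, was the opposite, at 13.09 in pupal CCs against 4.39 in larval and 3.64 in adult CCs. The chitin synthase gene kkv, named after its values were seen, stood at 7.14 in pupal and 7.01 in adult CCs and 0.73 in PRs. Between adult CCs and PRs, 10 of the 25 were higher and 1 lower (9 and 1 with median ratios), with a median of 1.70. In that comparison 9.31% of all genes were higher and 4.91% lower, and 21.9% of those at 32 units or more in either library were higher.

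Genes for zona pellucida domain proteins, which hold the apical matrix to the cell, divided in the same manner: of 12, 4 were higher in adult CCs and 4 in pupal CCs (4 and 5 with equal totals), with a median difference of -0.17. In that comparison 6.47% of all genes were higher in adult CCs and 6.11% in pupal CCs. The giant matrix protein gene dpy was at 12.19 in pupal and 16.59 in adult CCs, and cyr at 2.25 and 8.20. In the other direction zye fell from 9.72 to 5.36 and neo from 8.83 to 4.36. Against PRs, 6 of the 12 were higher in adult CCs (5 with equal totals) and none was lower. There 9.31% of all genes were higher (6.46% with equal totals) and 4.91% lower, and 21.9% of those at 32 units or more in either library were higher.

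Of 7 genes of cuticle tanning, 3 were higher in adult than in pupal CCs and none lower, though with equal totals Ddc alone was called. Over all genes 6.47% were higher and 6.11% lower. Ddc, which encodes dopa decarboxylase, stood at 3.04 in pupal and 8.83 in adult CCs, and at 6.38 in PRs. The tyrosine hydroxylase gene ple was at 5.22, 7.62 and 6.16, and the oxidase gene Duox at 5.92, 8.58 and 0. The b gene, which supplies beta-alanine for tanning, was under 32 units in each library.

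**Figure D5:**
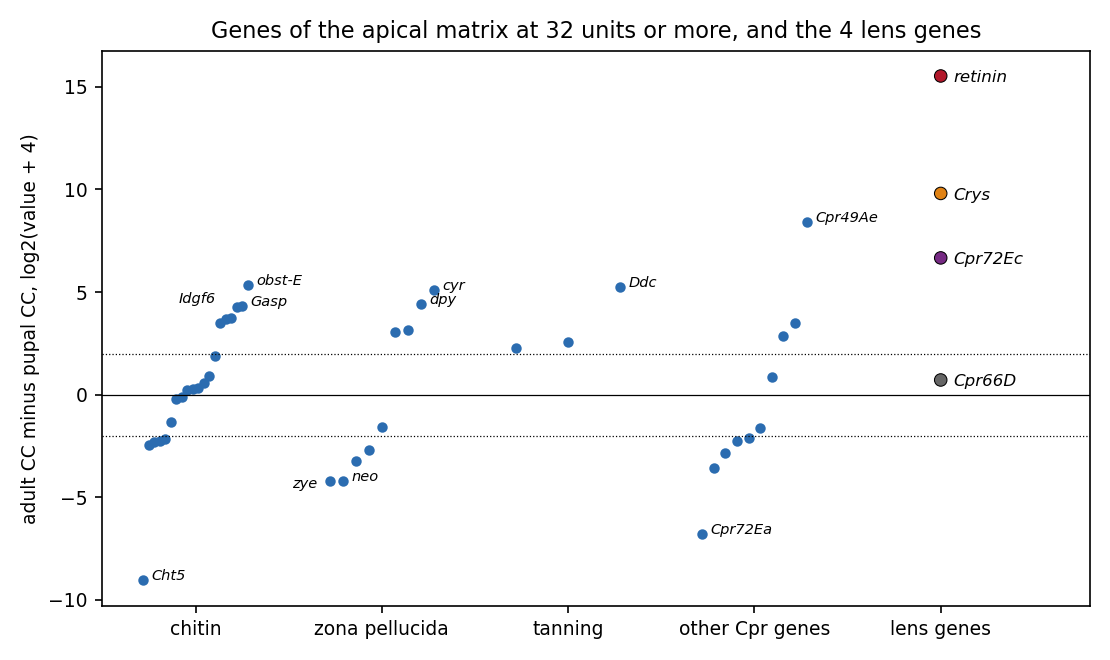
Difference between adult and pupal CCs on the log2(value + 4) scale (vertical axis) for genes of 4 lists that held 32 units or more in either library (blue points) and for the 4 lens genes, with dotted lines at 2 and -2. Members of the chitin, zona pellucida and other Cpr lists lie on both sides of 0, from -9.05 for Cht5 to 8.41 for Cpr49Ae, and retinin and Crys lie above these, at 15.52 and 9.80.

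Regulators of CC fate were mostly present at all stages: 14 of 14 were at 32 units or more in the larval library, 12 in the pupal and 12 in the adult CC library. Of the 14, 3 were higher in adult than in pupal CCs (sv, eya and so, of which so was not called with equal totals). The gene pros was the 1 that was lower (2 with median ratios and 3 with equal totals). Over all genes 6.47% were higher and 6.11% lower. Log2 levels in larval, pupal and adult CCs and PRs were 8.39, 8.99, 13.62 and 9.32 for sv. They were 9.44, 8.47, 12.66 and 8.89 for eya, and 10.43, 9.72, 4.28 and 5.05 for pros, the homeodomain factor behind the GFP of the younger sort. Thus sv and eya were at 8.39 or more in larval and pupal CCs, where retinin, Crys and Cpr72Ec did not exceed 3.65.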

How the data were processed

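RNA of sorted cells was amplified (NuGEN Ovation) and made into Nextera libraries, which carry no strand. The authors aligned the reads to dm3 (with TopHat2 2.0 and Bowtie 1.0, by the submitters' processing notes), made counts for each gene, applied TMM normalization jointly with data of whole flies, and deposited log2 values, with counts of 1 or less listed as 0. These are not divided by length, and depth was estimated from steps between values under 30 units (tolerance 0.02); 38.4% to 65.1% of such values were whole multiples, so reads were not recovered. Smaller steps, and so greater depth, were not searched.

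Of 14959 entries, 24 repeats at 0 were left out. Coding lengths, exons and arms came from Ensembl release 115 (BDGP 6) and gene order from the RefSeq table, both on another build, so no coordinates are given. Promoter and protein sequences and retinin-like proteins are not analysed here, nor are whole-fly data and a second adult CC library. Calculations used Python 3.11.15, numpy 2.4.6, pandas 2.3.3 and matplotlib 3.10.9. The size rule was run on simulated counts that held random sampling of reads alone, at the estimated depths. Spread between preparations was not simulated, so this does not show how far calls would repeat.

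Members and lists were chosen with earlier results of these data known. Named were the 4 lens genes and the 5 genes nearest in profile to each that reached 32 units. Also named were the 5 highest other listed Cpr genes in adult CCs, all CC markers and up to 4 highest photoreceptor and pigment markers. Each list gave up to 4 genes with the largest difference between adult and pupal CCs. Any other gene was named with its values already known.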

Additional observations from a re-analysis of the deposited data

How the results depend on the processing

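Of 112 results for differences of a lens gene under changed settings, 111 kept their call. The exception was Cpr72Ec between pupal and larval CCs: without the filter on low values its difference of 2.05 counted as higher, which made 1 lens gene higher there. Cpr66D, with no call, turned from 0.18 to -0.22 between adult and larval CCs with equal totals. Changed floors and the 8-fold rule alter the rule of calling and leave each difference as it was. Under 32 units throughout, Cpr66D could be called only without the filter. Counts over all genes moved more. Between adult CCs and PRs, 920 were higher with 16 units added, 602 were higher and 333 lower with a floor 8 times as high, and 681 and 423 by an 8-fold rule. Between adult and pupal CCs, 596 were lower with 16 units added, and 572 were higher and 1565 lower with equal totals, 589 and 294 with the higher floor, and 509 and 481 by the 8-fold rule. Between pupal and larval CCs, 399 were higher and 93 lower with 16 units added, 1262 higher with no filter, 169 and 48 with the higher floor, and 366 and 43 by the 8-fold rule. Between adult and larval CCs, 415 were lower with 16 units added, and 720 were higher and 1582 lower with equal totals (1346 and 665 as deposited), 700 and 206 with the higher floor, and 802 and 324 by the 8-fold rule. When adult CCs and PRs were compared by square roots, retinin ranked 1, Crys 14, Cpr72Ec 383 and Cpr66D 12479; by log2 difference the ranks were 34, 3, 2733 and 13215. Without division by length the places in adult CCs were 1 for retinin, 31 for Crys, 305 for Cpr72Ec and 10257 for Cpr66D. Of the 5 nearest genes, 3 were shared for retinin, for Crys and for Cpr72Ec with 1 unit added, and 3 for Crys with 16 units added. The cause of these shifts was not tested. No paired analysis was possible because each condition has 1 library, which also allows no replicate to be left out. Levels under 32 units rest on few reads by the estimated depth, which may be too low. They are those of Cpr66D in all libraries, of every lens gene in larval and pupal CCs, and of Crys in PRs.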
